A study of Mus musculus with 9 samples.

Results

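Of 22180 genes that the arrays measured with a probe set of their own, 31 neutrophil genes are described here. They are known from the granules, the surface, the cytosol and the nucleus of neutrophils. They were chosen by name, with earlier results of these data known. They comprised 4 genes of primary granule proteins (Mpo, Elane, Prtn3, Ctsg), 6 genes of secondary granule proteins (Ltf, Camp, Ngp, Lcn2, Cd177, Olfm4) and 21 further genes. A gene was represented by the brightest probe set annotated to its symbol alone, and each of the 31 genes had exactly 1 such probe set. RNA came from lamina propria macrophages of 9 female C57BL/6 mice, 5 LysMCre and 4 LysMCre;Arntfl/fl, each mouse on its own array. All mice of both genotypes carried the LysMCre transgene, were housed together, drank 3% dextran sodium sulfate (DSS), a polymer that injures the colon epithelium and causes colitis, for 5 days and then plain water for 3 days, and were killed on Day 8. LysMCre mice had intact Arnt alleles, and in LysMCre;Arntfl/fl mice the floxed Arnt alleles, which encode the partner shared by the hypoxia-inducible factors, were to be deleted wherever the lysozyme M promoter drives Cre. That promoter drives Cre in neutrophils as well as in macrophages, so the deletion was not restricted to macrophages. No source used here gives the ages, and no untreated mice were analysed here.

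Neutrophils assemble their granules in sequence while they mature in the bone marrow. The serine proteases and the peroxidase of primary (azurophil) granules are transcribed at the promyelocyte stage, the lactoferrin, lipocalin and cathelicidin of secondary (specific) granules at the myelocyte stage under the factor C/EBP epsilon, and gelatinase and surface receptors follow later. A neutrophil that has entered an inflamed tissue therefore carries the proteins of all granules. The transcripts of both the primary and the secondary granule genes belong mainly to earlier stages. Which stages the cells of these samples had reached was not tested. Several of the genes are not private to neutrophils: epithelial cells can express Lcn2, Slpi and Olfm4, hepatocytes express Hp and Lrg1, monocytes express S100a8, S100a9 and Trem1, and mast cells and basophils express Hdc.

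The RNA of Arnt and of the genes of the sorting gate was read first. Such levels do not measure the purity of the sort. Arnt had log2 values of 9.54, 9.44, 9.36, 9.31 and 9.31 in LysMCre and 8.77, 8.60, 8.84 and 8.70 in LysMCre;Arntfl/fl macrophages, so that the arrays of the genotypes did not overlap (log2 difference -0.66, standard error [SE] 0.09, limma adjusted p = 0.0214); no source used here says whether the probe set covers the deleted exon. Cells were gated as CD45+, CD11b+ and F4/80+, and neutrophils carry CD45 and CD11b but largely lack F4/80; the labels name no step against Ly6G. The genes of the gate were measured at mean log2 values of 12.11 and 12.10 for Ptprc (CD45), 11.79 and 12.23 for Itgam (CD11b) and 11.09 and 10.94 for Adgre1 (F4/80) in LysMCre and LysMCre;Arntfl/fl macrophages, and limma called none of the 3, although the Itgam arrays did not overlap (adjusted p = 0.16). The medians of the arrays ran from 5.98 to 6.04, correlations of array pairs from 0.976 to 0.990, and the median log2 difference of all probe sets was 0.01. In such a bulk sample, a change in the number of neutrophils among the sorted cells and a change in the RNA per cell cannot be told apart.

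The log2 difference, the mean of the LysMCre;Arntfl/fl arrays minus that of the LysMCre arrays, was positive for 30 of the 31 genes, against 51.8% of all probe sets, and the median log2 difference was 0.98. Because the genes were chosen with earlier results of these data known, this and the following shares describe the set and do not test it. The classes differed in size: the median log2 difference was 1.54 for the secondary granule genes, 0.99 for the further genes and 0.08 for the primary granule genes. With limma, which was fitted to all 34365 probe sets with Benjamini-Hochberg adjustment and called probe sets over 1.5-fold apart with adjusted p under 0.05, 3 of the 31 genes were called higher (Ngp, Olfm4 and Asprv1), where 0.143% of all probe sets were. Limma called 0 of the 31 lower, against 0.151% of all probe sets, 0 had an unadjusted p below 0.05 in that direction, against 5.79%, and 24 had one in the higher direction, where 5.72% of all probe sets had. A difference of more than 1.5-fold on the higher side was measured for 23 of the 31 genes, against 1.09% of all probe sets, and for 10 genes (Ngp, Lcn2, Olfm4, Cxcr2, Csf3r, Wfdc21, Lrg1, Asprv1, Trem3 and Adam8) the 2 genotypes did not overlap, against 2.52% of all probe sets; 0 genes lay wholly below, against 2.22%. With a SAM-type d score, after the test named in the methods, 11 of the 31 were higher and 0 lower at the same thresholds, against 0.413% and 0.521% of all probe sets: Ngp, Lcn2, Olfm4, Camp, Cxcr2, Wfdc21, Hp, Lrg1, Asprv1, Trem3 and Adam8.

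**Figure D1:**
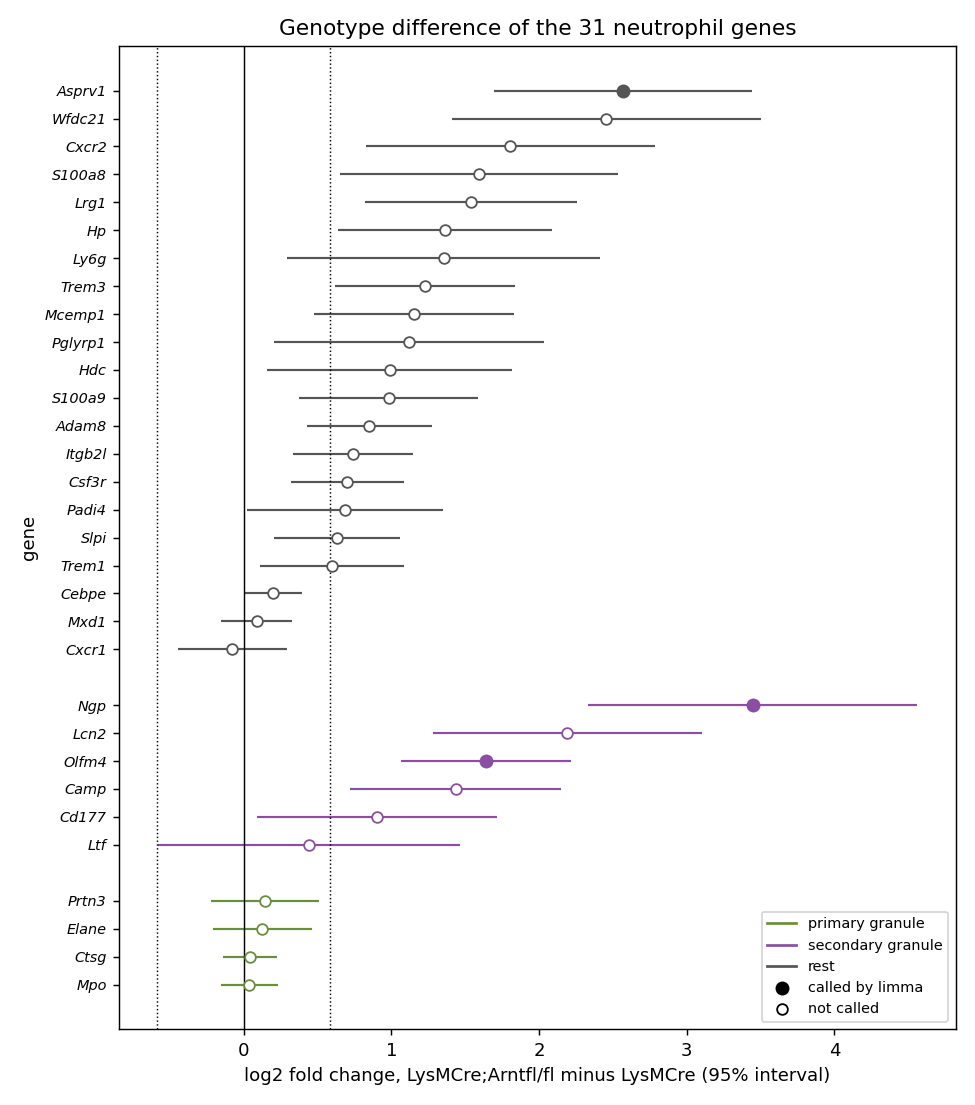
Log2 difference of each of the 31 genes (x axis, LysMCre;Arntfl/fl minus LysMCre, point) with its 95% interval from limma (bar), grouped from the bottom into primary granule, secondary granule and further genes; filled points were called by limma and dotted lines mark 1.5-fold. The primary granule genes lie between 0.04 and 0.14 and the secondary granule genes between 0.44 and 3.45.

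The primary granule genes differed little between genotypes, at levels where they may not have been detected: over all probe sets they lay at the 44.9th to 58.8th percentile of the mean level, and without detection calls it is not known whether they were above background. Mpo, which encodes myeloperoxidase, had log2 values of 5.75, 5.91, 5.78, 5.74 and 5.62 in LysMCre and 5.93, 5.69, 5.77 and 5.80 in LysMCre;Arntfl/fl macrophages. Elane, the gene of neutrophil elastase, was at 6.04, 6.02, 5.78, 6.10 and 5.52 against 6.38, 5.97, 5.97 and 5.75. For both genes the arrays of the genotypes were interleaved, with neither genotype at the top throughout. The log2 difference was 0.04 for Mpo (95% interval -0.15 to 0.23, limma adjusted p = 0.922) and 0.12 for Elane (-0.21 to 0.46, adjusted p = 0.833). Prtn3, which encodes proteinase 3, and Ctsg, which encodes cathepsin G, had log2 differences of 0.14 (-0.22 to 0.51, adjusted p = 0.823) and 0.04 (-0.14 to 0.22, adjusted p = 0.908), also with overlapping arrays. All 4 intervals ended below 1.5-fold, and smaller differences within them cannot be told from 0 with these arrays. Limma and the SAM-type score called 0 of the 4, and 0 had an unadjusted p below 0.05. The values of the 4 genes lay between 5.41 (Prtn3 in LysMCre replicate 3) and 6.57 (Ctsg in LysMCre;Arntfl/fl replicate 1) throughout.

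The secondary granule genes included the largest difference among the 31 genes and ran from 0.44 to 3.45 on the log2 scale. Ngp, which encodes neutrophilic granule protein, a relative of the cathelicidins, rose the most: its log2 values were 6.65, 7.61, 6.53, 9.26 and 8.16 in LysMCre and 10.46, 10.84, 11.72 and 11.34 in LysMCre;Arntfl/fl macrophages. The lowest LysMCre;Arntfl/fl array thus lay above the highest LysMCre array, replicate 4, and the LysMCre arrays were themselves widely spread (SD 1.13). The ratio was 10.9-fold (log2 difference 3.45, SE 0.51, limma adjusted p = 0.033). Olfm4, the gene of olfactomedin 4, a granule glycoprotein of part of the neutrophils that crypt cells of the gut also make, had log2 values of 5.73, 5.47, 5.72, 6.30 and 6.16 against 6.96, 7.12, 7.76 and 8.24, and rose (log2 difference 1.64, SE 0.26, adjusted p = 0.0351). Its LysMCre values lay around the array medians, where a probe set may not be above background, so that its difference may be a lower bound. Lcn2, whose product lipocalin 2 withholds iron from bacteria by binding their siderophores, measured 9.13, 8.38, 8.81, 10.64 and 9.95 against 11.04, 11.31, 11.99 and 11.95, again without overlap, at an adjusted p of 0.0562 from limma (log2 difference 2.19).

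The other secondary granule genes overlapped between genotypes, through different arrays. Camp, which encodes the antimicrobial cathelicidin, had log2 values of 5.38, 6.78, 5.27, 5.49 and 5.93 in LysMCre and 6.98, 6.65, 7.92 and 7.28 in LysMCre;Arntfl/fl macrophages, so that LysMCre replicate 2 alone reached into the other genotype (log2 difference 1.44, SE 0.32, limma adjusted p = 0.0929). Its other LysMCre values lay below the array medians, where a probe set may not be above background. For Cd177, a surface and granule membrane protein that pairs with the serine protease proteinase 3 in human neutrophils, the values were 8.18, 7.96, 8.28, 9.50 and 9.15 against 9.15, 8.75, 10.15 and 10.01, with LysMCre replicates 4 and 5 inside the range of the other genotype (log2 difference 0.902, adjusted p = 0.373). Ltf, the gene of the iron-binding protein lactoferrin, had the smallest difference of the 6 genes. Its log2 values were 7.79, 7.74, 9.98, 7.42 and 9.13 in LysMCre and 8.63, 8.60, 9.11 and 9.07 in LysMCre;Arntfl/fl macrophages, with LysMCre replicates 3 and 5 above every LysMCre;Arntfl/fl array and LysMCre replicate 4, the highest of the LysMCre arrays for 26 of the 31 genes, the lowest of all 9 arrays. The log2 difference of Ltf was 0.44 (95% interval -0.58 to 1.46, limma adjusted p = 0.798), and it ran from 0.19 without LysMCre replicate 4 to 0.83 without LysMCre replicate 3.

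**Figure D2:**
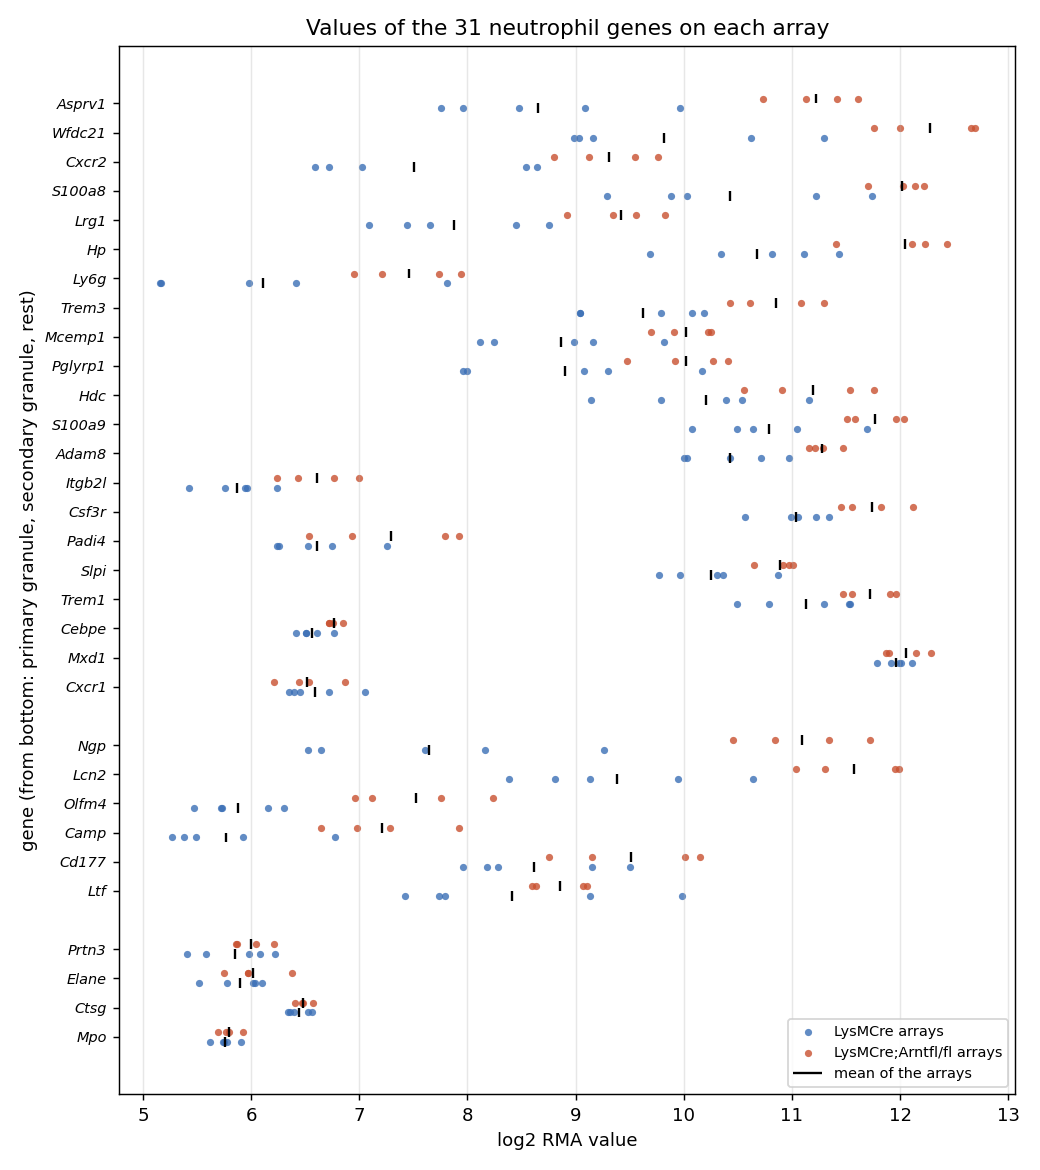
Log2 RMA value (x axis) of each of the 31 genes (y axis) on the 5 LysMCre arrays (blue points) and the 4 LysMCre;Arntfl/fl arrays (red points), with the group means as black ticks. The points of the genotypes are apart for Ngp, Lcn2 and Olfm4 and interleaved for Mpo, Elane, Prtn3 and Ctsg, and Ltf has its highest value, 9.98, in a LysMCre array.

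The start regions of the 3 called genes are shown with those of Lcn2, a secondary granule gene without overlap, and Elane, a primary granule gene with little difference, so that the letters before genes of unlike response can be compared. The sequences are RefSeq's for the assembly GRCm38.p6, 250 bases before and 50 bases after the annotated start, and 27 of the 31 genes had such an entry (all but Wfdc21, Cebpe, Trem3 and Hp). Capitals mark matches on either strand to TTGCNNAA, a core of C/EBP sites, to ACGTG, the core to which the hypoxia-inducible factors bind, and to GAGGAA, a core of PU.1 sites; no 2 marked matches overlap.
Ngp, chr9:110419558-110419857, plus strand: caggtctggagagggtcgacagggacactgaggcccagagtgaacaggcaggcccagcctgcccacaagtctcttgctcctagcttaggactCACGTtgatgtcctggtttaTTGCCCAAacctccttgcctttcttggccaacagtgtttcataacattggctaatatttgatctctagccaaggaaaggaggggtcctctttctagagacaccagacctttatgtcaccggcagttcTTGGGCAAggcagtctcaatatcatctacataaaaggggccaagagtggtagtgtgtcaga
Olfm4, chr14:80000052-80000351, plus strand: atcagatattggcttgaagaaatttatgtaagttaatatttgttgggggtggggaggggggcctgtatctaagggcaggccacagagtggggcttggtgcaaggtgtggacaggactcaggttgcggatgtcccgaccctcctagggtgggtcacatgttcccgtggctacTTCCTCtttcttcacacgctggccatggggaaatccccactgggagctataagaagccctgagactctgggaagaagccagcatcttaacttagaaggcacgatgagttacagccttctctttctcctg
Asprv1, chr6:86627924-86628223, plus strand: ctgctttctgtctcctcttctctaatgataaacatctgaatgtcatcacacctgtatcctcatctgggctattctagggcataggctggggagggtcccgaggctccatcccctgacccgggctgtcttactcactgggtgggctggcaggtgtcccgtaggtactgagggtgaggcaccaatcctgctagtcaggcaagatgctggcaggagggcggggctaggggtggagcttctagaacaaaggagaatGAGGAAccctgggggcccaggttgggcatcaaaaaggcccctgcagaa
Lcn2, chr2:32387690-32387989, minus strand: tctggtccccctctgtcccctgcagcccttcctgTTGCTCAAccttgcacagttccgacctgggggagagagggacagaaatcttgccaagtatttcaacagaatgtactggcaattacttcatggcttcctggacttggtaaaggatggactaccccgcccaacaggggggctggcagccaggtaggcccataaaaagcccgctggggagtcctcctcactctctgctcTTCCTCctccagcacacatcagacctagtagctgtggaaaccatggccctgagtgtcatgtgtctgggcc
Elane, chr10:79886062-79886361, plus strand: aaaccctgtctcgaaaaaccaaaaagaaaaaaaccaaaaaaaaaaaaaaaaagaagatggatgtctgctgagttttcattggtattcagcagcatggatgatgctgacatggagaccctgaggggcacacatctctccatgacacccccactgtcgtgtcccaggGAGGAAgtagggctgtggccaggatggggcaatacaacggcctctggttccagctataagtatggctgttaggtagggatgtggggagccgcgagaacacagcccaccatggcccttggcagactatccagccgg
The Ngp region held 2 matches to TTGCNNAA, 138 and 11 bases before the start, and 1 to ACGTG, 158 bases before it. The Lcn2 region held 1 match to TTGCNNAA and 1 to GAGGAA, and the regions of Olfm4, Asprv1 and Elane held 1 match to GAGGAA each and 0 to the other letters. Among the 27 genes, TTGCNNAA was found in 7 (25.9%), against 10.8% of all 32851 such regions, ACGTG in 6 (22.2%), against 19.6%, and GAGGAA in 16 (59.3%), against 28.3%, which are counts without a test. The units are unlike: a gene counted if any of its regions matched, whereas the background counted each region by itself. The genes with GAGGAA included all 4 primary granule genes. A match is a description of the letters and not of binding.

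Among the receptors, Cxcr2, the main chemokine receptor by which neutrophils follow CXCL1 and related attractants, had one of the larger differences, and its neighbour and relative Cxcr1 the one negative value; whether the differences of these 2 genes differ was not tested. Cxcr2 had log2 values of 7.03, 6.59, 6.72, 8.64 and 8.54 in LysMCre and 9.12, 8.80, 9.55 and 9.76 in LysMCre;Arntfl/fl macrophages, without overlap, though LysMCre replicates 4 and 5 lay only 0.16 and 0.26 below the lowest LysMCre;Arntfl/fl array. Its log2 difference was 1.80 (SE 0.44), at an adjusted p of 0.115 from limma and q = 0.0451 from the SAM-type score. Cxcr1 was at 6.35, 6.45, 6.40, 7.05 and 6.72 against 6.87, 6.44, 6.21 and 6.54 (log2 difference -0.08, 95% interval -0.45 to 0.29, limma adjusted p = 0.918), and the sign turned without LysMCre replicate 4 (0.04), as it did when replicate 3 of LysMCre;Arntfl/fl was left out (0.03). At the 60.8th percentile of the mean level over all probe sets, Cxcr1 may not have been above background. Csf3r, the receptor for granulocyte colony-stimulating factor, which drives the formation and release of neutrophils, measured 11.06, 10.99, 10.57, 11.34 and 11.22 against 11.56, 11.45, 11.82 and 12.12, without overlap (log2 difference 0.70, limma adjusted p = 0.116).

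Ly6g, the gene of the surface antigen that marks mouse neutrophils, varied widely within LysMCre, at 5.17, 5.16, 5.98, 7.81 and 6.42, against 7.21, 6.95, 7.94 and 7.74 in LysMCre;Arntfl/fl macrophages. Only LysMCre replicate 4 reached the range of the other genotype, and the log2 difference was 1.35 (SE 0.48, limma adjusted p = 0.289, and 0.0485 without that array). Limma called Ly6g in only 1 of the 9 fits without 1 array, in which the adjusted p reached 0.502. The values of LysMCre replicates 1 and 2 lay below the array medians, where a probe set may not be above background. Trem3, an activating receptor of the TREM family, had no overlap, at 9.79, 9.04, 9.04, 10.19 and 10.08 against 10.43, 10.61, 11.08 and 11.30 (log2 difference 1.23, adjusted p = 0.0929), whereas Trem1, the receptor of the same family that amplifies Toll-like receptor signals, had a log2 difference of 0.595 with LysMCre replicates 1 and 4 inside the range of the other genotype (adjusted p = 0.315). Mcemp1, a membrane protein, and Itgb2l, a beta integrin-like gene of mouse neutrophils, had log2 differences of 1.15 (adjusted p = 0.147) and 0.74 (adjusted p = 0.118) with overlap through LysMCre replicate 4. The LysMCre mean of Itgb2l, 5.87, was below the array medians, so that it too may not have been above background. Adam8, a membrane-bound metalloprotease, measured 10.43, 10.00, 10.03, 10.97 and 10.71 against 11.16, 11.47, 11.21 and 11.29, without overlap (log2 difference 0.85, adjusted p = 0.0927).

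Asprv1, which encodes an aspartic protease first known from skin, was the third gene that limma called, and the one outside the granule classes. Its log2 values were 8.48, 7.76, 7.96, 9.97 and 9.09 in LysMCre and 10.73, 11.13, 11.42 and 11.61 in LysMCre;Arntfl/fl macrophages, a ratio of 5.94 (log2 difference 2.57, SE 0.40, adjusted p = 0.033). Wfdc21, a small gene with a whey acidic protein domain, had nearly as large a difference with more spread, at 9.03, 8.99, 9.16, 11.30 and 10.62 against 11.76, 12.00, 12.69 and 12.66 (log2 difference 2.46, SE 0.47, limma adjusted p = 0.0598, q = 0.0197 from the SAM-type score). Slpi, which encodes a secreted inhibitor of elastase and cathepsin G with domains of the same kind, had a log2 difference of 0.63 (adjusted p = 0.209), with LysMCre replicate 4 (10.87) inside the range of the other genotype.

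The calprotectin genes S100a8 and S100a9, whose products form a calcium- and zinc-binding complex that fills the cytosol of neutrophils, had LysMCre;Arntfl/fl arrays close together and LysMCre arrays far apart. S100a8 measured 10.03, 9.29, 9.88, 11.74 and 11.22 in LysMCre and 11.70, 12.03, 12.22 and 12.14 in LysMCre;Arntfl/fl macrophages, and S100a9 measured 10.49, 10.08, 10.64, 11.69 and 11.05 against 11.51, 11.58, 11.96 and 12.04. In both genes LysMCre replicate 4 was the array that overlapped. The log2 differences were 1.59 (limma adjusted p = 0.148) and 0.98 (adjusted p = 0.167), and without that array limma called both, at adjusted p = 0.0488 and 0.042. It called each in only 1 of the 9 fits without 1 array, in which the adjusted p reached 0.314 for S100a8 and 0.362 for S100a9.

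Of the remaining secreted proteins and enzymes, none was called by limma. Lrg1, which encodes leucine-rich alpha-2-glycoprotein, was at 7.65, 7.44, 7.09, 8.75 and 8.45 in LysMCre and 9.35, 8.92, 9.83 and 9.56 in LysMCre;Arntfl/fl macrophages, without overlap (log2 difference 1.54, adjusted p = 0.0762). Hp, the gene of haptoglobin, the binder of free haemoglobin that neutrophils store in granules, was at 11.11, 10.34, 9.69, 11.44 and 10.82 against 11.41, 12.11, 12.23 and 12.43 (log2 difference 1.36, adjusted p = 0.109). Pglyrp1, a peptidoglycan-binding granule protein, had a log2 difference of 1.12 (adjusted p = 0.314), and Hdc, the enzyme that makes histamine, one of 0.99 (adjusted p = 0.330), both with LysMCre replicate 4 inside the range of the other genotype. Padi4, the enzyme that citrullinates histones when neutrophils release extracellular traps, had a log2 difference of 0.69 (adjusted p = 0.413).

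The transcriptional regulators among the 31 genes stayed near their LysMCre levels. Cebpe, the gene of C/EBP epsilon, measured 6.51, 6.61, 6.42, 6.77 and 6.51 in LysMCre and 6.85, 6.72, 6.72 and 6.76 in LysMCre;Arntfl/fl macrophages (log2 difference 0.20, 95% interval 0.01 to 0.40, limma adjusted p = 0.418). It lay at the 62.5th percentile of the mean level and may not have been above background. Mxd1, which encodes a MYC antagonist abundant in mature neutrophils and other myeloid cells, measured 12.11, 11.92, 11.79, 12.01 and 11.99 against 11.90, 11.87, 12.15 and 12.29 (log2 difference 0.09, 95% interval -0.15 to 0.33, adjusted p = 0.839). In the RefSeq gene order, 5 pairs of the 31 genes lie next to each other with 0 protein-coding genes between them, and position did not go with response in all of them. Asprv1 and Mxd1 form such a pair with log2 differences of 2.57 and 0.09, and Cxcr2 and Cxcr1 another with 1.80 and -0.08. The pairs S100a8 and S100a9 (1.59 and 0.98), Trem3 and Trem1 (1.23 and 0.595), and Prtn3 and Elane (0.14 and 0.12) were closer to each other. Since Cxcr1, Prtn3 and Elane may not have been above background, the pairs that hold them say little about position and response.

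Many of the genes ranked the mice of a genotype alike. Of the 5 LysMCre arrays, replicate 4 had the highest value in 26 of the 31 genes, while replicates 2 and 3 had the lowest value in 14 and 12. Replicate 4 reached or exceeded the lowest LysMCre;Arntfl/fl array in 18 of the 31 genes, and the other LysMCre arrays did so in 4 to 7 genes. Of the LysMCre;Arntfl/fl arrays, replicates 3 and 4 had the highest value in 13 and 10 genes and replicates 1 and 2 the lowest in 12 and 14. The mean log2 level of the 21 genes outside the granule classes was 8.90, 8.49, 8.62, 9.84 and 9.37 in LysMCre and 9.89, 9.87, 10.33 and 10.38 in LysMCre;Arntfl/fl macrophages, and that of the secondary granule genes was 7.14, 7.33, 7.43, 8.10 and 8.08 against 8.87, 8.88, 9.77 and 9.65. For the secondary granule genes the genotypes were 0.77 apart at the nearest arrays, and for the 21 genes only 0.03. The primary granule genes did not share this order, with a mean level of 6.08, 6.15, 5.83, 6.12 and 5.77 against 6.27, 6.00, 6.05 and 5.97. Among the LysMCre mice the median SD of the 31 genes was 0.61, against 0.17 over all probe sets, and 21 of the 31 had an SD above the 90th percentile of all probe sets; in LysMCre;Arntfl/fl macrophages the medians were 0.34 and 0.16, and 16 were above that percentile.

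**Figure D3:**
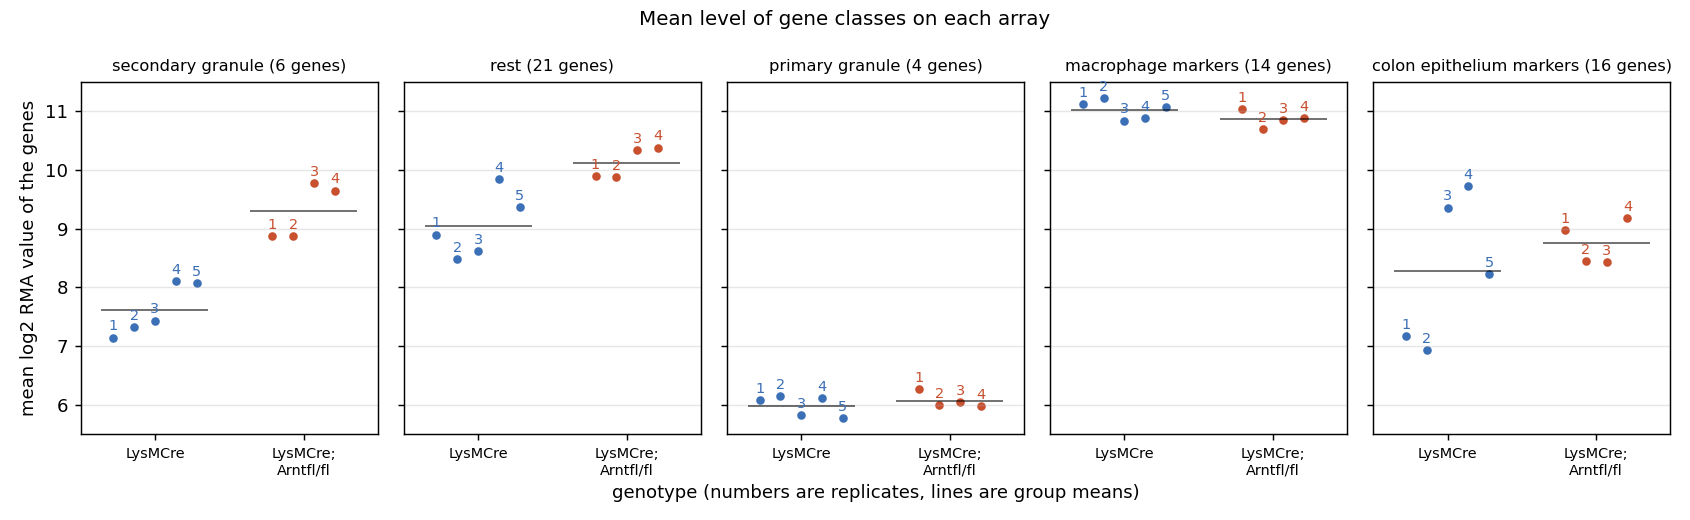
Mean log2 RMA value (y axis) of each class of neutrophil genes and of the macrophage and colon epithelium markers on each array, by genotype (x axis); numbers are replicates and lines are group means. LysMCre replicate 4 has the highest LysMCre mean among the further genes (9.84) and the highest of all arrays among the epithelial markers (9.72).

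The count of calls changed with single arrays. Limma called 11 of the 31 genes without LysMCre replicate 4 (Ngp, Lcn2, Olfm4, Ly6g, S100a8, S100a9, Wfdc21, Lrg1, Asprv1, Mcemp1 and Adam8) and the same 3 without LysMCre;Arntfl/fl replicate 1, where it called 0.215% and 0.201% of all probe sets higher (74 and 69). It called 0 of the 31 in each of the other 7 fits without 1 array, in which it called 0 to 17 of all probe sets higher (at most 0.0495%), so that the calls fell over the whole array as well. In those 7 fits 17 to 23 of the 31 genes had an unadjusted p below 0.05 on the higher side, against 4.77% to 5.67% of all probe sets. In these 9 fits the log2 difference ran from 3.17 to 3.85 for Ngp, from 1.40 to 1.83 for Olfm4 and from 2.35 to 2.90 for Asprv1, and the adjusted p of each was at most 0.11. Without LysMCre replicate 4, 20 of the 31 genes did not overlap between genotypes, where 3.56% of all probe sets did not.

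**Figure D4:**
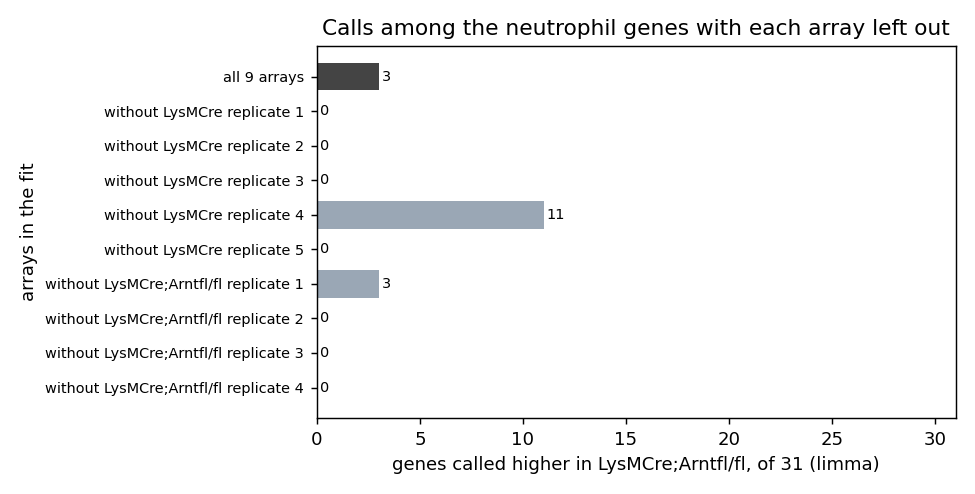
Number of the 31 genes that limma called higher in LysMCre;Arntfl/fl macrophages (x axis, bars from 0) with all 9 arrays and with each array left out in turn (y axis). The count is 3 with all arrays, 11 without LysMCre replicate 4, 3 when LysMCre;Arntfl/fl replicate 1 is left out and 0 in the others, fits in which 49, 74, 69 and 0 to 17 of all 34365 probe sets were called higher.

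Other genes of neutrophil maturation and function were summarised by list. Over all probe sets, limma called 0.143% higher and 0.151% lower, and the SAM-type score 0.413% and 0.521%. An unadjusted p below 0.05 was found for 5.72% on the higher and 5.79% on the lower side, and 2.52% lay wholly above. Of 4 measured stefin A genes, cysteine protease inhibitors abundant in mouse neutrophils, 3 were called higher: Stfa3 (log2 difference 2.90), Stfa2l1 (2.80) and Stfa1 (2.72), and Stfa2 was at 0.26. Of 4 further genes of neutrophil granule and membrane proteins, 3 had log2 differences of 2.26 (Chil1, a chitinase-like protein), 2.09 (Mmp8, neutrophil collagenase) and 1.36 (Mmp9, gelatinase B) with no overlap; limma called 0 of the 4 (3 at an unadjusted p below 0.05), the SAM-type score called 3, and Mmp25 was at -0.18. Of 7 other genes expressed late in neutrophil maturation, limma called 1, Ankrd22 (log2 difference 2.93, adjusted p = 0.0214), while the SAM-type score called 3, with Retnlg (2.11) and Il1f9 (1.98) among them, and 5 had an unadjusted p below 0.05 on the higher side. Limma called 0 of 9 measured receptors (median log2 difference 0.39, 7 with an unadjusted p below 0.05 on the higher and 2 on the lower side, 1 called by the SAM-type score) and 0 of 5 NADPH oxidase subunits (median 0.33, 4 and 0, and 0 by that score). The 2 receptors on the lower side were Il1r2 (log2 difference -0.44) and Fcgr4 (-0.56). Both lay wholly below LysMCre, where 2.22% of all probe sets did, and 4 of the 9 receptors lay wholly above. Of 7 regulators of granulopoiesis, 0 were called by either test and 0 had an unadjusted p below 0.05, with a median of 0.05 and a largest value of 0.29 for Spi1, the gene of PU.1. Of 9 neutrophil attractants and growth factors 0 were called by either test, with 3 at an unadjusted p below 0.05 on the higher and 1 on the lower side, and a median of 0.15.

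Markers of other cells were read beside these values. The shares over all probe sets given for the lists above apply to their counts as well, with 5.72% and 5.79% at an unadjusted p below 0.05 on the higher and lower side. The 14 macrophage markers had a mean log2 level of 10.84 to 11.22 in LysMCre and 10.69 to 11.03 in LysMCre;Arntfl/fl arrays, with 9 of 14 log2 differences negative (median -0.16) and 0 called by limma (2 with an unadjusted p below 0.05 on the higher and 5 on the lower side), while the SAM-type score called 1 lower, Cx3cr1 (-0.83). Of the 8 markers of inflammatory monocytes, whose mean level ran from 8.86 to 9.79 and from 9.64 to 9.89, 0 were called by limma (2 and 1 at an unadjusted p below 0.05), and the SAM-type score called 1, Chil3 (2.25), which neutrophils express as well. The 16 markers of colon epithelium, which can itself make Lcn2, Slpi and Olfm4, had a mean level of 7.17, 6.93, 9.36, 9.72 and 8.22 in LysMCre and 8.98, 8.44, 8.43 and 9.18 in LysMCre;Arntfl/fl arrays, with 11 of 16 log2 differences positive (median 0.43) and 0 called by limma or the SAM-type score (1 and 1 at an unadjusted p below 0.05). Single epithelial markers went both ways, from -1.44 (Muc2) to 2.66 (Reg3b), so that their mean does not stand for each of them. The 2 highest arrays in that mean were LysMCre replicates 4 and 3, above every LysMCre;Arntfl/fl array. In the mean of the secondary granule genes all 4 LysMCre;Arntfl/fl arrays were above all 5 LysMCre arrays. Within LysMCre the orders were partly shared: replicates 1 and 2 were the 2 lowest and replicate 4 the highest for both the epithelial markers and the secondary granule genes. Replicate 3 was high for the epithelial markers and Ltf, but Ltf did not follow these markers in the other arrays. In replicate 4, the highest for the markers, Ltf had its lowest value of all arrays (7.42). In replicate 5 Ltf was at 9.13, where the mean of the markers was 8.22. The 11 mast cell and basophil markers, read beside Hdc, lay between 4.79 and 5.13 and between 5.09 and 5.84, with 0 called by either test (3 and 0 at an unadjusted p below 0.05). Limma and the SAM-type score called 0 of the measured markers of eosinophils (6), T cells (5), B cells (4) and dendritic cells (5), whose median differences were -0.12, -0.02, -0.11 and 0.04, with 1 eosinophil and 1 T cell marker at an unadjusted p below 0.05 on the lower side. The part of these cell types in the values of the 31 genes was not tested.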

How the data were processed

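RNA was extracted with TRIzol LS from sorted lamina propria macrophages, and 1.5 ng from each mouse went onto an Affymetrix Mouse Gene array after amplification. Per the methods, the authors used Expression Console at its defaults, RMA and Partek (version 6.6 in the submitters' processing notes, an earlier version in the methods), and the deposited values are log2 RMA values, background corrected, quantile normalized and summarised per probe set. The annotation release, filters and detection calls: not given in the sources used here. The values lay between 2.26 and 14.27, and no column was left out. Of 34365 probe sets, 23521 carried 1 gene symbol in the platform annotation. Some genes of the lists are not reported here.

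The genotypes were compared by limma 3.58.1 (lmFit and eBayes) in R 4.3.3 over all probe sets with no filter, and the scripts were tested on simulated data. The text names all 31 genes, Arnt, and of each other list the genes called and up to 2 more with the largest change. Mmp9, Mmp25, Il1r2, Fcgr4 and the genes of the gate were added after their values were seen. The members and lists were chosen with earlier results of these data known, and so were the sequence motifs. The alternatives were a SAM-type d score (100 permutations), the methods' t-test, a variance trend, array weights, no fold threshold, centring on medians, a filter on dim probe sets, quantile normalization once more, the mean of all probe sets of a gene, the replicate number as a block, and leaving out each array. The number of arrays limits the precision.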

Additional observations from a re-analysis of the deposited data

How the results depend on the processing

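The sign of the 31 genes did not change with array weights, median centring or a further quantile normalization; the other tests and filters leave the differences as they are. The count of the 31 genes called higher, 3 with limma, was 11 with the SAM-type d score, 6 with array weights, 6 with only probe sets above the median level (28 of the genes remained), 17 at the unadjusted p of the methods' t-test and 0 after Benjamini-Hochberg adjustment of that test, and it ranged from 0 to 11 without 1 array. Over all probe sets, the counts called higher and lower were 49 and 52, and they were 142 and 179 with the SAM-type d score, 87 and 80 with array weights, 98 and 106 above the median level, 252 and 359 at the unadjusted p of the methods' t-test and 1 and 3 after its adjustment, with 0 to 74 and 1 to 75 without 1 array. With the replicate number as a block, which leaves LysMCre replicate 5, without a partner, out of the difference, limma called 0 of the 31 genes (23 at an unadjusted p below 0.05) and 3 probe sets higher and 2 lower in all. The numbers are shared labels only: deviations of arrays with the same number correlated at -0.120, -0.0715, -0.000463 and 0.166. The median log2 fold change without 1 array ran from 0.01 to 0.12 for the primary granule genes, from 1.38 to 1.70 for the secondary granule genes and from 0.80 to 1.23 for the further genes. The number of genes over 1.5-fold higher ran from 20 to 24 and that of genes without overlap from 10 to 20, counts chosen after seeing the data. The sign turned without 1 array for Mpo (-0.0060 without LysMCre;Arntfl/fl replicate 1; range -0.0060 to 0.076), for Cxcr1 (0.037 without LysMCre replicate 4, 0.03 when replicate 3 of LysMCre;Arntfl/fl was left out; range -0.195 to 0.037), and, without LysMCre replicate 2, for the markers Cd3e (range -0.000883 to 0.356) and Flt3 (range -0.0718 to 0.256). Since each gene had 1 probe set, averaging probe sets changed nothing. The cause of these changes was not tested.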

Other observations

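A few genes of the marker lists outside the neutrophil genes had wide differences that limma did not call. The epithelial antimicrobial lectin genes Reg3b and Reg3g averaged 9.39 ± 2.61 and 7.29 ± 2.33 on the log2 scale (SD, 5 LysMCre mice), against 12.05 ± 0.56 and 9.47 ± 1.02 (SD, 4 LysMCre;Arntfl/fl mice; limma adjusted p = 0.370 and 0.455). The mucosal mast cell protease genes Mcpt1 and Mcpt2 were higher by 1.87 and 1.69 on the log2 scale without passing the test (limma adjusted p = 0.151 and 0.348). The fractalkine receptor gene Cx3cr1, a marker of mature colonic macrophages, had a log2 difference of -0.83 (limma adjusted p = 0.103), with q = 0.0497 from the SAM-type score. The highest or lowest array of a genotype stood apart from the rest of its genotype in 0 of 62 groups, the 31 genes in 2 genotypes, by Dixon's criterion. About 1 in 20 independent groups would by chance, but these groups share the same 9 arrays and are not independent. The criterion reads each gene by itself, and LysMCre replicate 4 was the highest LysMCre array in 26 of the 31 genes.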
